A study of Mus musculus with 8 samples.

Results

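The genes described here encode the machinery that builds peroxisomes and the enzymes that work inside them, measured in livers of male mice on a high-fat diet (HFD). The group was defined by 40 listed gene symbols, and all 40 were found among the 18095 genes of the count table through their Ensembl identifiers in the GRCm38 annotation. It holds 13 peroxins, the *Pex* genes of peroxisome assembly, and 27 peroxisomal enzymes and membrane transporters. The rule that lists them uses no measured value, but the list was drawn up with earlier results of these data known. They lie on 18 chromosomes, with no more than 6 on any chromosome.

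Peroxisomes are small organelles that carry no DNA. Their enzymes are made in the cytosol, recognised by soluble receptors through short targeting signals, and imported folded through a membrane complex of peroxins. In liver, peroxisomes shorten very long and branched fatty acids, finish bile acid side chains, start ether lipid synthesis and break down the hydrogen peroxide that their oxidases release. Many of the genes of fatty acid breakdown in this organelle are known targets of the nuclear receptor PPARA in rodents.

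Whole livers of 4 mice labelled HFD WT and 4 labelled HFD *Inpp4b*-/-, aged 12 weeks by the labels, gave 1 RNA library each. *Inpp4b* encodes a phosphatase of inositol lipids, and the -/- notation marks loss of both copies; how the allele was made is not given in the sources used here. Both groups received the HFD, with 59.4% fat, and their dams had been on it before mating and through lactation. The labels give the background as C57BL/6, whereas the methods describe breeding into FVB.

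Depth was 25893430 to 31427831 counts per HFD WT library, and every library labelled as knockout was deeper, at 32738435 to 36662531 counts. All values below are CPM, counts scaled to a library total of 1000000, after edgeR's TMM normalisation, which removes this difference in depth. The share of counts from the mitochondrial chromosome was 4.75 to 5.64% in the WT and 5.84 to 7.42% in the knockout libraries, without overlap. The 10 most abundant genes took 15.3 to 16.2% and 16.4 to 18.0% of the counts, again without overlap. The 6 hepatocyte markers summed to 72726 to 81978 CPM in the WT and 74494 to 94518 CPM in the knockout libraries, with 2 of 6 fitted above 0, none called and none at 0. In bulk tissue, fewer cells of a type and less RNA per cell cannot be told apart.

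The counts of the targeted gene did not check the labels. *Inpp4b* had 6, 20, 5 and 8 counts in the libraries labelled HFD WT and 33, 10, 9 and 14 in those labelled HFD *Inpp4b*-/-. Mean levels were 0.332 CPM and 0.465 CPM (log2 ratio 0.39 after adding 0.1 CPM, exact permutation test, two-sided, p = 0.486). Reads at this gene were few and not fewer in the knockout libraries, and counts summed over a whole gene do not show whether the disrupted exons were read. The groups are therefore named as the libraries are labelled, and every "higher" or "lower" below compares the libraries labelled HFD *Inpp4b*-/- with those labelled HFD WT.

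A gene was called when its Benjamini-Hochberg adjusted p in edgeR's quasi-likelihood test, over all 14866 genes that passed the expression filter, was under 0.10 and its fold change over 1.3. All 13 peroxins and 26 of the 27 enzymes and transporters passed the filter, and the remaining member was *Hao2*. Of the 39 tested members, 1 was called, *Pex16*, which was higher. This is 2.56% of the members, against 1.17% of all tested genes called in either direction and 0.552% called higher. In DESeq2, 5 of the 40 members were called, *Pex10*, *Pex16*, *Acaa1b*, *Ech1* and *Hao2*, all higher, and 3.81% of the 18069 genes it tested were called. Of these 5, *Hao2* was listed in the deposited counts through the knockout libraries alone, which favours higher knockout values.

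The fitted change was above 0 for 30 of the 39 members (76.9%), against 50.4% of all tested genes. The median log2 fold change was 0.18 over the members and 0.0027 over all genes. An unadjusted p under 0.05 was found for 13 members (33.3%), 12 of them higher and 1 lower, against 13.9% of all genes. In 10 of the tested members (25.6%) every HFD *Inpp4b*-/- library lay above every HFD WT library, against 4.63% of all genes. In 1 member (2.56%), *Agps*, every knockout library lay below every WT library, against 4.09% of all genes. These shares describe the list, and genes of a shared pathway are not independent of each other.

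**Figure D1:**
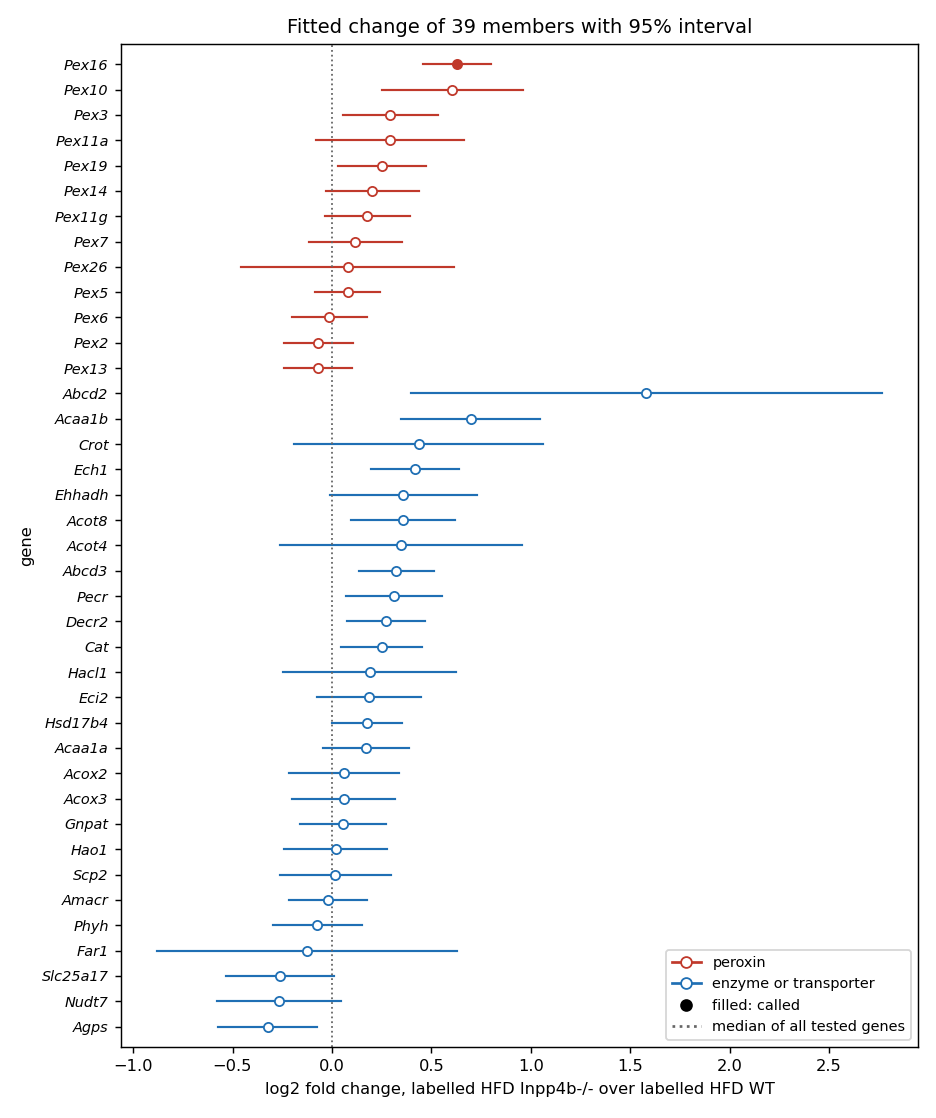
Fitted log2 fold change (x axis) of the 39 tested members, each a point with its 95% interval, sorted within peroxins (red) and enzymes or transporters (blue); the dotted line is the median of all tested genes, 0.0027. The filled point is *Pex16*, the member that was called, and the intervals of 12 members lie above 0, that of 1 member below 0 and those of 26 members hold 0.

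Peroxins and enzymes had nearly equal median changes. The 13 peroxins, 10 fitted above 0 and 3 below, had a median of 0.18 on the log2 scale, and the 26 enzymes and transporters, 20 above and 6 below, also 0.18. The difference of the medians was -0.0021, where the same difference taken in each library had a spread (SD) of 0.0834 between libraries.

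In single libraries, the median log2 difference of the peroxins from the HFD WT mean was 0.025, -0.076, 0.099 and -0.067 in HFD WT and 0.19, 0.15, 0.13 and 0.24 in HFD *Inpp4b*-/-. That of the enzymes and transporters was 0.054, -0.073, 0.014 and -0.021 in HFD WT and 0.19, 0.21, 0.24 and 0.11 in HFD *Inpp4b*-/-. In both classes all 4 knockout libraries lay above all 4 WT libraries. For all tested genes the same measure stayed between 0.0003 and 0.019 in the 8 libraries.

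**Figure D2:**
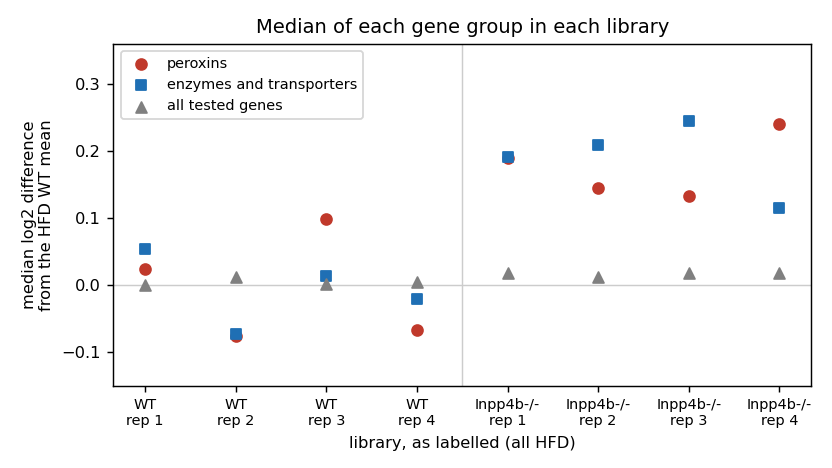
Median log2 difference from the HFD WT mean (y axis) in each of the 8 libraries (x axis) for the 13 peroxins, the 26 tested enzymes and transporters and all 14866 tested genes. The peroxin medians reach 0.099 in HFD WT and start at 0.13 in HFD *Inpp4b*-/-, and the enzyme medians reach 0.054 and start at 0.11.

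Levels per length spanned a wide range, with a higher median in the enzymes and transporters and overlapping ranges of the classes. As RPKM (CPM divided by the exon length in kilobases), the HFD WT mean was highest for *Scp2* (1396), *Cat* (1124), *Phyh* (1108) and *Acaa1b* (624). The peroxins ran from 2.16 RPKM for *Pex10* to 43.9 RPKM for *Pex16*, with a median of 12.2, while the enzymes and transporters had a median of 72.8 RPKM. The lowest enzymes were *Abcd2* at 1.10 RPKM, *Far1* at 0.379 RPKM and *Hao2* at 0.0121 RPKM.

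**Figure D3:**
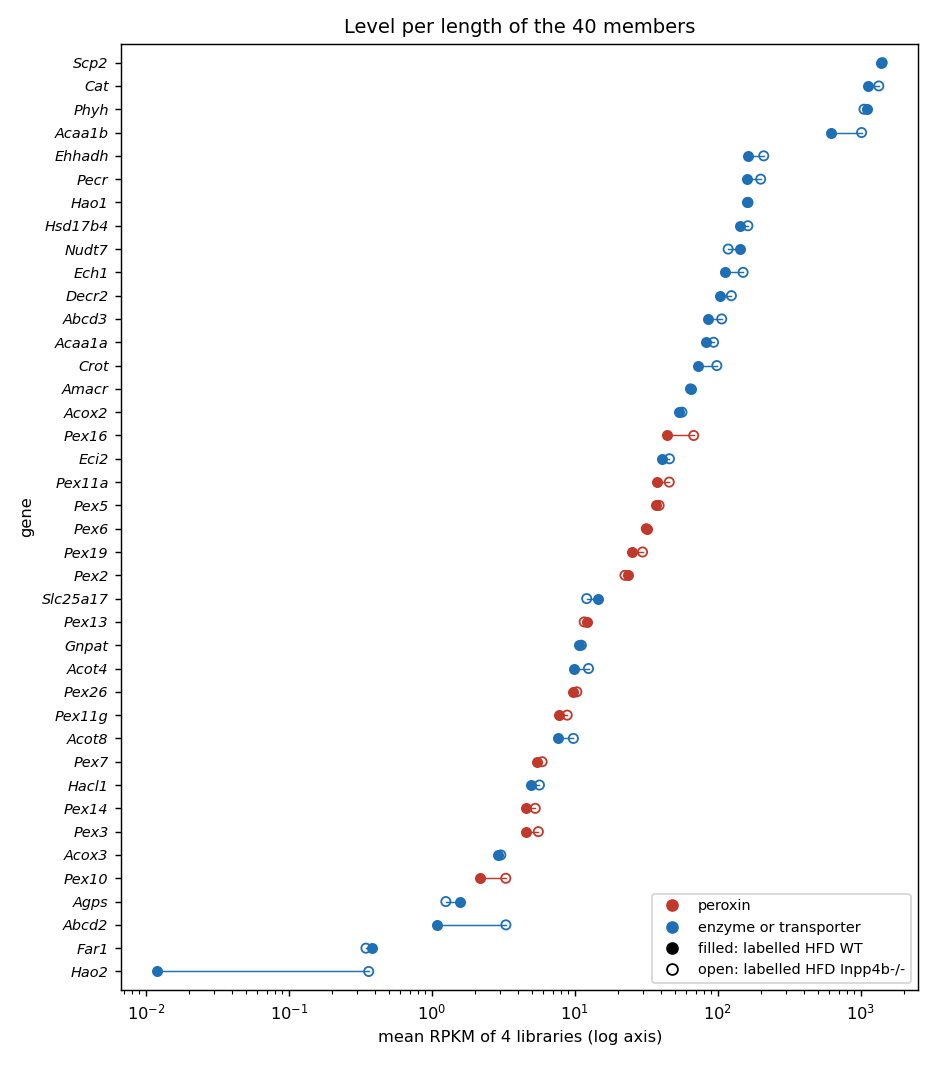
Mean RPKM of the 4 libraries of each group (x axis, log scale) for the 40 members in the order of their HFD WT level; filled points are HFD WT and open points HFD *Inpp4b*-/-. The 13 peroxins (red) lie between 2.16 and 43.9 RPKM in HFD WT, and 16 enzymes or transporters (blue) lie above the highest of them.

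Promoter sequence from RefSeq (GRCm38.p6; 250 bases before to 50 after each start) was matched by symbol for 35 of the 40 members. *Abcd2*, *Amacr*, *Hsd17b4*, *Pex19* and *Pex2* had no entry. The 250 bases before the start are shown for *Pex16* and *Pex10*, the peroxins with the lowest p, and for the neighbouring thiolase genes *Acaa1b* and *Acaa1a*. Each is written 5′ to 3′ on the strand of its gene, and capitals mark exact matches, on either strand, to GGGCGG (the GC box), CCAAT or TATAAA. The windows are chr2:92374426-92374675 (plus strand) for *Pex16*, chr4:155066780-155067029 (plus) for *Pex10*, chr9:119157094-119157343 (minus) for *Acaa1b* and chr9:119341044-119341293 (plus) for *Acaa1a*.
Pex16: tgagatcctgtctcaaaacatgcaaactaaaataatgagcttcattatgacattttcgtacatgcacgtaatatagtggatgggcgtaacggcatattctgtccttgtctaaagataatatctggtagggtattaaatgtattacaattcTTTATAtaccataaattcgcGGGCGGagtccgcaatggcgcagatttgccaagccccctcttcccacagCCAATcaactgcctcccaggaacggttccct
Pex10: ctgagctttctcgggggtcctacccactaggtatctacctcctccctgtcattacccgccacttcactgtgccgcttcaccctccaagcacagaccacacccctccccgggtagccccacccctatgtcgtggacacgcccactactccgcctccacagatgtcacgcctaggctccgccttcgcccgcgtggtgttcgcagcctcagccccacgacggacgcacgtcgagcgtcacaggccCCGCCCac
Acaa1b: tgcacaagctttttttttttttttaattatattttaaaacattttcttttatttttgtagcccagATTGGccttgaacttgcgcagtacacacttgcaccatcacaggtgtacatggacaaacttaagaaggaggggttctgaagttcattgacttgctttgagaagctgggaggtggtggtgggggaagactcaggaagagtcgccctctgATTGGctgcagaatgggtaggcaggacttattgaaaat
Acaa1a: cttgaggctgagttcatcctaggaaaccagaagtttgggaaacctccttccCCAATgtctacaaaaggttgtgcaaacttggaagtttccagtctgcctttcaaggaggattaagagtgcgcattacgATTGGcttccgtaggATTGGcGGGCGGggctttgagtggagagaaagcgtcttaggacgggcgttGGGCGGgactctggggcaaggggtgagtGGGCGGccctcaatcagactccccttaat

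RefSeq gives *Pex16* a further start, and the 250 bases before it (chr2:92374989-92375238, plus strand) have a GC content of 51.6%, hold none of these motifs and are not printed. The *Pex16* window shown holds 1 match to each of the 3 motifs, that of *Pex10* 1 GC box, that of *Acaa1a* 3 GC boxes and 3 CCAAT matches, and that of *Acaa1b* only 2 CCAAT matches. GC content was 42.8% for *Pex16*, 65.6% for *Pex10*, 41.6% for *Acaa1b* and 53.6% for *Acaa1a*. Over all 41 windows of the members (300 bases, both strands), 68.3% held a GC box, against 35.7% of the 32851 windows of all genes. CCAAT was found in 43.9% against 37.4%, TATAAA in 9.76% against 13.6%, and the palindromic motif of NRF1 in 12.2% against 4.60%. A pair of AGGTCA sites in the same direction with 1 base between them, the consensus bound by PPARA with RXR, was found in 0 of 41 windows and in 0.0396% of all. A match is a description of the letters, and a window without one says nothing of the factor.

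Among the peroxins, the genes that place proteins in the peroxisomal membrane had the largest median change by role. PEX19 carries newly made membrane proteins, PEX3 is its docking site on the membrane and PEX16 recruits PEX3. All 3 were fitted above 0, with a median of 0.29 on the log2 scale and an unadjusted p under 0.05 for each. *Pex16* (chromosome 2, 92374676 to 92381217, plus strand) was the member with the smallest p. Its level was 82.4, 75.8, 81.9 and 71.4 CPM in HFD WT and 119, 119, 118 and 126 CPM in HFD *Inpp4b*-/-. The knockout libraries lay within a narrow band, and the lowest of them was well above the highest WT library. *Pex16* rose 1.55-fold (log2 0.63, SE 0.0775, 95% interval 0.46 to 0.80), with an edgeR adjusted p of 0.0107. Leaving out any 1 library kept the adjusted p between 0.0200 and 0.0422. *Pex16* was no longer called when the fit held a block for the replicate number.

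Exons of *Pex16* overlap those of *Large2* on the opposite strand, and the promoter shown above lies inside *Large2*. The strand setting of the counting is not given in the sources used here. *Large2*, a glycosyltransferase gene, was far lower, at 1.38 ± 0.57 and 1.86 ± 0.34 CPM (SD, n = 4 each), with a log2 fold change of 0.43 (edgeR adjusted p = 0.612).

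*Pex3* was measured at 23.0, 20.3, 23.8 and 18.9 CPM in HFD WT and 28.3, 23.0, 26.7 and 27.4 CPM in HFD *Inpp4b*-/-. One knockout library fell among the WT values, and the log2 fold change was 0.29 (SE 0.107, edgeR adjusted p = 0.266). *Pex19* was at 99.4, 103, 102 and 78.1 CPM in HFD WT and at 109.5, 118, 109.5 and 117 CPM in HFD *Inpp4b*-/-. Its groups did not overlap, but WT replicate 4 stood below the other WT libraries, and the log2 fold change was 0.25 (SE 0.0996, edgeR adjusted p = 0.301). Neither *Pex3* nor *Pex19* passed the threshold, with fold changes of 1.23 and 1.19.

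The RING peroxins form the ubiquitin ligase that marks import receptors for recycling. *Pex10* (chromosome 4, 155067016 to 155072433, plus strand) was the least abundant peroxin, at 6.82, 6.36, 8.59 and 6.76 CPM in HFD WT and 8.94, 10.4, 10.8 and 13.3 CPM in HFD *Inpp4b*-/-. The groups did not overlap, but the highest WT and the lowest knockout library were close. Its log2 fold change was 0.61 (SE 0.159, 95% interval 0.25 to 0.96), close to that of *Pex16*, with an edgeR adjusted p of 0.154 and a DESeq2 adjusted p of 0.032. *Pex2*, another subunit of the same ligase, had a log2 fold change of -0.07 with an interval of -0.24 to 0.11 (edgeR adjusted p = 0.739).

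The docking complex receives loaded receptors at the membrane. *Pex14* was at 28.2, 26.5, 34.3 and 26.2 CPM in HFD WT and 34.9, 34.4, 33.2 and 30.2 CPM in HFD *Inpp4b*-/-, with 1 WT library within the knockout range. Its log2 fold change was 0.20 (SE 0.105, edgeR adjusted p = 0.420), and that of its partner *Pex13* was -0.07 (adjusted p = 0.733).

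The import receptors had narrow intervals around small changes. *Pex5*, the receptor for most matrix enzymes, lay between 139 and 156 CPM in HFD WT and between 149 and 158 CPM in HFD *Inpp4b*-/-, with a log2 fold change of 0.08 (95% interval -0.08 to 0.24). *Pex7*, which imports a smaller set that includes the thiolases, had a log2 fold change of 0.12 (95% interval -0.12 to 0.35).

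Receptors leave the membrane through an ATPase of which *Pex6* encodes a subunit and *Pex26* the membrane anchor. *Pex6* had a log2 fold change of -0.01 (95% interval -0.20 to 0.18). *Pex26* ranged from 40.9 to 76.2 CPM in HFD WT and from 36.3 to 75.1 CPM in HFD *Inpp4b*-/-, the widest interval among the peroxins (-0.46 to 0.62).

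The PEX11 proteins elongate peroxisomes before division, and *Pex11a* is the form induced by peroxisome proliferators. *Pex11a* ranged from 93.3 to 151 CPM in HFD WT and from 127 to 163 CPM in HFD *Inpp4b*-/-, with a log2 fold change of 0.29 (SE 0.166, edgeR adjusted p = 0.469). *Pex11g* had a log2 fold change of 0.18 (adjusted p = 0.441). Neither differed beyond the spread between libraries.

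**Figure D4:**
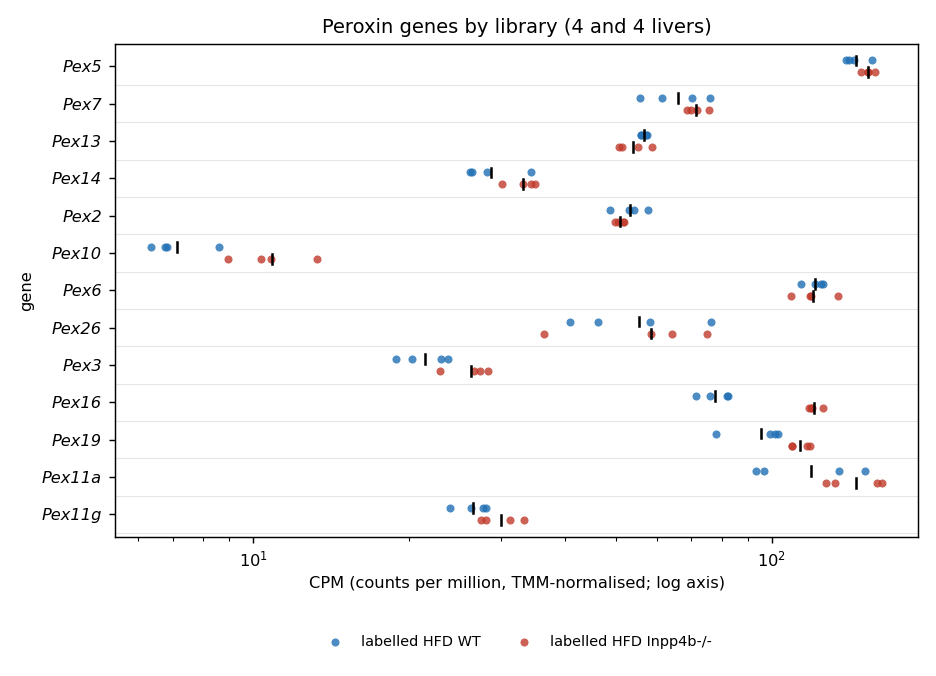
Level in CPM (x axis, log scale) of the 13 peroxin genes in each of the 4 HFD WT (blue) and 4 HFD *Inpp4b*-/- (red) libraries; black ticks are group means. *Pex10*, *Pex16* and *Pex19* show no overlap between the groups, and the gap is widest for *Pex16*, between 82.4 and 118 CPM.

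In the group listed for straight-chain beta-oxidation, which includes *Hsd17b4* and *Scp2*, all 5 genes had a fitted change above 0, with a median of 0.18. None was called, and the sign of *Scp2* changed with the library left out. *Acaa1b* (chromosome 9, 119148023 to 119157093, minus strand) encodes one of the peroxisomal thiolases, which release acetyl-CoA in the last step. Its level was 975, 1142, 1422 and 1359.7 CPM in HFD WT and 2468, 1992, 1715 and 1779 CPM in HFD *Inpp4b*-/-. Every knockout library was above every WT library, but both groups varied. The log2 fold change was 0.70 (SE 0.157, 95% interval 0.35 to 1.05), or 1.62-fold, and the edgeR adjusted p of 0.103 missed the threshold. DESeq2 gave an adjusted p of 0.0030, and edgeR with upper quartile scaling gave 0.0930.

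The neighbouring thiolase gene *Acaa1a* had a smaller fitted change. It was at 328 to 419 CPM in HFD WT and 383 to 442 CPM in HFD *Inpp4b*-/-, with a log2 fold change of 0.17 (edgeR adjusted p = 0.474). The ratio of *Acaa1b* to *Acaa1a* in CPM was 2.32, 3.48, 3.89 and 3.84 in HFD WT and 5.96, 4.84, 4.48 and 4.02 in HFD *Inpp4b*-/-, without overlap. The genes are closely related, and how reads shared between them were counted is not given in the sources used here, so the split between them is uncertain. Each also shares exon sequence with a gene on the opposite strand, *Dlec1* for *Acaa1b* and *Myd88* for *Acaa1a*.

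The bifunctional enzymes carry out the hydration and dehydrogenation steps. *Ehhadh*, which is strongly inducible by PPARA ligands, ranged from 385 to 617 CPM in HFD WT and from 498 to 755 CPM in HFD *Inpp4b*-/-, with a log2 fold change of 0.36 (SE 0.165, edgeR adjusted p = 0.371). *Hsd17b4*, which also serves branched substrates and bile acid precursors, had groups that did not overlap, at 468 to 517 and 528 to 581 CPM, but a log2 fold change of only 0.18 (adjusted p = 0.359). *Scp2*, which encodes a thiolase for branched chains and a lipid carrier, did not differ beyond its spread, with a log2 fold change of 0.02 (95% interval -0.26 to 0.30).

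The enzymes of branched-chain and bile acid precursor oxidation showed small differences. *Acox2* and *Acox3*, oxidases of branched acyl-CoAs, both had a log2 fold change of 0.06, and *Amacr*, the racemase that prepares branched substrates, had -0.02. The 95% intervals of all 3 held 0, and their upper ends were at most 0.34.

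The enzymes that act on unsaturated acyl-CoAs were all fitted above 0, with a median of 0.29 on the log2 scale. Of these 4, 3 had an unadjusted p under 0.05 and none was called. *Ech1*, a dienoyl-CoA isomerase that is also present in mitochondria, was at 265, 220.1, 270.4 and 273 CPM in HFD WT and 370.3, 349.8, 346 and 307 CPM in HFD *Inpp4b*-/-. All 4 knockout libraries exceeded the highest WT library, and WT replicate 2 was lower than the other WT libraries. Its log2 fold change was 0.42 (SE 0.0991, 95% interval 0.20 to 0.64), with an edgeR adjusted p of 0.123 and a DESeq2 adjusted p of 0.0174.

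*Decr2*, the peroxisomal dienoyl-CoA reductase, was at 272, 269.9, 276 and 277 CPM in HFD WT and 315, 296, 339 and 371 CPM in HFD *Inpp4b*-/-. The WT libraries were almost equal, the knockout libraries were all higher and more spread, and the log2 fold change was 0.27 (SE 0.0882, edgeR adjusted p = 0.222). *Pecr*, an enoyl-CoA reductase, had a log2 fold change of 0.31 (adjusted p = 0.251), and *Eci2*, an enoyl-CoA isomerase, had 0.18 (adjusted p = 0.521). The groups of both overlapped.

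Fatty acyl-CoAs enter peroxisomes through ABC transporters of subfamily D. *Abcd3*, the abundant liver form, was at 535, 569, 592 and 547 CPM in HFD WT and 727, 659, 670.0 and 754 CPM in HFD *Inpp4b*-/-. The groups did not overlap and each was narrow, with a log2 fold change of 0.32 (SE 0.0851, edgeR adjusted p = 0.153). DESeq2 gave an adjusted p of 0.0131, but the fold change of 1.25 was under the limit.

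The fitted change of *Abcd2*, the form that prefers very long and polyunsaturated acyl-CoAs, exceeded that of any other tested member. This gene, *Acot4*, *Agps* and *Cat* are given by library because of their values. *Abcd2* was at 1.99, 14.0, 6.37 and 3.69 CPM in HFD WT and 29.5, 23.3, 14.8 and 10.9 CPM in HFD *Inpp4b*-/-. WT replicate 2 lay within the knockout range, and both groups were wide. Fitted over all libraries, its log2 fold change was 1.58 (SE 0.531, 95% interval 0.40 to 2.77) with an edgeR adjusted p of 0.236. Without WT replicate 2 it was 2.28, with an adjusted p of 0.0664, and *Abcd2* was then called. *Slc25a17*, the carrier of CoA and related cofactors, had a log2 fold change of -0.26 (adjusted p = 0.374).

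Thioesterases and carnitine acyltransferases take shortened acyl groups off CoA so that they can leave the peroxisome. *Acot8*, a thioesterase of broad range, was at 17.7, 16.3, 13.5 and 13.5 CPM in HFD WT and 19.4, 21.1, 17.8 and 19.7 CPM in HFD *Inpp4b*-/-. The groups almost touched, and the log2 fold change was 0.36 (SE 0.117, edgeR adjusted p = 0.226). Exons of *Acot8* overlap those of *Snx21* on the opposite strand.

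*Acot4*, a succinyl-CoA thioesterase, was at 55.9, 114, 50.9 and 41.0 CPM in HFD WT and 88.2, 88.5, 83.0 and 73.3 CPM in HFD *Inpp4b*-/-. WT replicate 2 was the highest of all 8 libraries, whereas the other WT libraries were below every knockout library. The log2 fold change was 0.35 (edgeR adjusted p = 0.612) with all libraries and 0.75 (adjusted p = 0.0393, called) without WT replicate 2. The related *Acot3* next to it, which is no member, was likewise highest in that library, at 42.5 CPM against 3.77 to 6.93 CPM in the other WT and 15.4 to 24.5 CPM in the knockout libraries. An annotated gene model on the same strand shares exons with *Acot4*.

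*Crot*, the carnitine octanoyltransferase, varied within both groups, from 302 to 559 CPM in HFD WT and from 288 to 709 CPM in HFD *Inpp4b*-/-, with a log2 fold change of 0.44 (SE 0.281, edgeR adjusted p = 0.527). *Nudt7*, a hydrolase that degrades CoA in peroxisomes, had a log2 fold change of -0.27 (adjusted p = 0.435). *Nudt7* lies on chromosome 8 at 32.0 Mb from *Inpp4b*, *Gnpat* at 42.7 Mb and *Pex11g* at 77.9 Mb.

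The enzymes of alpha-oxidation, which shortens phytanic acid and other methyl-branched acids, did not differ beyond the spread. *Phyh*, its hydroxylase, had a log2 fold change of -0.07 (95% interval -0.30 to 0.15) and *Hacl1*, its lyase, had 0.19 (95% interval -0.24 to 0.63).

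Ether lipid synthesis was the only role with more members below 0 than above, 2 against 1. *Agps*, which places the ether bond, was at 15.3, 13.6, 15.4 and 14.7 CPM in HFD WT and 13.4, 12.0, 11.3 and 10.5 CPM in HFD *Inpp4b*-/-. The highest knockout library was just under the lowest WT library. The log2 fold change was -0.32 (SE 0.111, 95% interval -0.57 to -0.07) with an edgeR adjusted p of 0.248, so *Agps* was not called. *Gnpat*, which acts one step before it, had 0.05 (95% interval -0.16 to 0.27). *Far1*, which supplies the fatty alcohol, had a log2 fold change of -0.13 (95% interval -0.88 to 0.63) with 1 WT library apart, replicate 4 at 5.53 CPM against 2.09 to 2.32 CPM in the other WT libraries. Without that library its log2 fold change was 0.33 (adjusted p = 0.570).

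Catalase, which splits hydrogen peroxide, was among the most abundant members. *Cat* was at 2733, 3002, 3104 and 2908 CPM in HFD WT and 3511, 3533, 3522 and 3408 CPM in HFD *Inpp4b*-/-. All knockout libraries were higher and lay within a narrow band. The log2 fold change was 0.25 (SE 0.0907, 95% interval 0.05 to 0.45), or 1.19-fold, with an edgeR adjusted p of 0.266 and a DESeq2 adjusted p of 0.0341. *Hao1*, the glycolate oxidase, had a log2 fold change of 0.02 (95% interval -0.24 to 0.28).

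*Hao2*, an oxidase of long-chain hydroxy acids known for sex-dependent expression in rodent liver, was the member below the filter. It had 0, 1, 2 and 0 counts in HFD WT and 45, 45, 14 and 3 counts in HFD *Inpp4b*-/-. The groups did not overlap, although the lowest knockout library had a single count more than the highest WT library. Means were 0.0247 and 0.742 CPM (log2 ratio 2.75 after adding 0.1 CPM, exact permutation test, two-sided, p = 0.0286, the smallest that 4 against 4 permits). Against a floor of 3 counts in each WT library, the knockout mean was at least 7.04-fold higher. The floor covers counting error only. With 1 CPM added instead, the log2 ratio was 0.77, and without any 1 WT library the exact permutation p was 0.0571. DESeq2, which does not apply that filter, gave an adjusted p of 0.0038. The deposited counts list only genes with a read in every library of at least 1 group, and *Hao2* met this through the knockout libraries alone. That selection favours higher knockout values, so the p-values, the lack of overlap and the bound are not free of it.

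Because of *Hao2*, a list of 14 other liver genes known to be higher in females was examined, 11 of which were in the table. It summed to 19.7, 46.5, 24.8 and 19.0 CPM in HFD WT and 184, 152, 125 and 55.4 CPM in HFD *Inpp4b*-/-. Of its 4 tested members 1 was called, the cytochrome P450 gene *Cyp2b9*, with 3.51 ± 4.56 and 109 ± 60.6 CPM (SD, n = 4 each) and a log2 fold change of 4.93 (edgeR adjusted p = 0.0433). Without *Cyp2b9*, the other 10 genes summed to 18.1, 36.2, 23.5 and 18.1 CPM in HFD WT and 12.0, 19.4, 23.6 and 26.2 CPM in HFD *Inpp4b*-/-, so that the groups overlapped. Most of this sum was *Fmo2*, at 16.2 to 25.9 CPM in HFD WT and 7.30 to 21.5 CPM in HFD *Inpp4b*-/-. The other 3 tested genes of the list had fitted changes below 0 in edgeR. DESeq2 called 3 of the list, *Cyp2b9* and *Cyp2b13* higher and *Cyp3a16* lower, and 3.81% of all genes. *Cyp2b13*, below the edgeR filter, had 0, 7, 0 and 0 counts in HFD WT and 60, 34, 39 and 7 in HFD *Inpp4b*-/-. Its DESeq2 adjusted p was 0.0072, and like *Hao2* it was listed through the knockout libraries alone. The part of these values in the *Hao2* result was not tested.

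**Figure D5:**
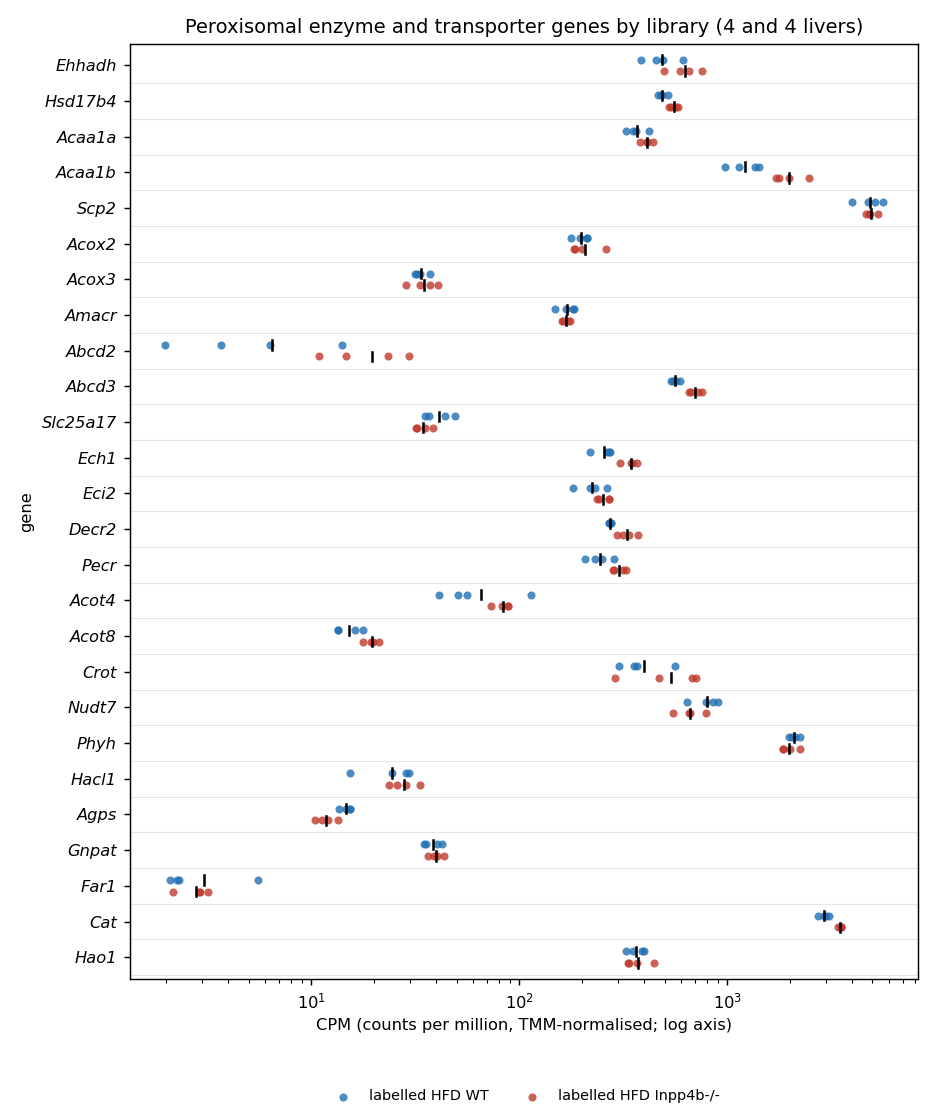
Level in CPM (x axis, log scale) of the 26 tested enzyme and transporter genes in each of the 4 HFD WT (blue) and 4 HFD *Inpp4b*-/- (red) libraries; black ticks are group means. In 7 genes, among them *Acaa1b*, *Ech1*, *Abcd3* and *Cat*, all knockout libraries lie to the right of all WT libraries, in *Agps* all lie to the left, and WT replicate 2 is the farthest right of its group for *Abcd2* and *Acot4*.

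A further 48 genes of the peroxisome, among them other peroxins, oxidases and carriers, were listed for comparison. Of the 45 tested, 33 were fitted above 0 (73.3%), with a median of 0.14 on the log2 scale. edgeR called none, against 1.17% of all genes. DESeq2 called 2 of the 45, *Crat* and *Lonp2*, against 631 of the 14866 genes tested in edgeR. An unadjusted edgeR p under 0.05 was found for 8 (17.8%, against 13.9% of all genes), all of them above 0. In 6 of the 45 (13.3%, against 4.63% of all genes) every knockout library lay above every WT library. Chosen after their values were seen, *Crat*, carnitine acetyltransferase, had a log2 fold change of 0.55 (adjusted p = 0.109 in edgeR and 0.0140 in DESeq2), *Lonp2*, the peroxisomal protease, 0.54 (adjusted p = 0.1296 and 0.0161), and *Slc27a2*, a very long-chain acyl-CoA synthetase, 0.38 (adjusted p = 0.138 and 0.0108, with a fold under the limit in DESeq2). *Lonp2* lies 4.50 Mb from *Inpp4b* on chromosome 8.

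Of the 10 tested regulators of peroxisomal genes, 3 were fitted above 0. edgeR called none, with 1 at an unadjusted p under 0.05 (10%, against 13.9% of all genes). DESeq2 called 1, *Pparg*, against 631 of the 14866 genes tested in edgeR. *Ppara* itself was at 95.8 ± 25.2 and 92.0 ± 17.3 CPM (SD, n = 4 each), a log2 fold change of -0.06 (edgeR adjusted p = 0.926). *Pparg*, the related receptor best known from fat cells, was low, at 1.58 ± 1.52 and 5.18 ± 3.01 CPM, with a log2 fold change of 1.73 (adjusted p = 0.279 in edgeR and 0.0858 in DESeq2).

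Known PPARA targets outside the peroxisome were mixed in direction. Of 19 tested, 12 were fitted above 0 and 7 below, with a median of 0.25. The edgeR test called 2 (10.5%, against 1.17% of all genes) and DESeq2 called 5 (against 631 of the 14866 genes tested in edgeR). An unadjusted edgeR p under 0.05 was found for 8 (42.1%, against 13.9% of all genes), 7 of them higher and 1 lower. Every knockout library lay above every WT library in 7 (36.8%, against 4.63%) and below in 0 (against 4.09%). Of the edgeR calls, *Mgll*, monoglyceride lipase, rose 1.35-fold (log2 0.43, edgeR adjusted p = 0.0942). *Cyp4a14*, an omega-hydroxylase and a classical target, named here for its opposite sign, had a log2 fold change of -0.999 (adjusted p = 0.264).

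Markers of other cells were summed by library. The 8 markers of Kupffer cells and macrophages summed to 50.3 to 150 CPM in HFD WT and 105 to 188 CPM in HFD *Inpp4b*-/-, with 7 of 8 fitted above 0 and none called. The 5 endothelial markers summed to 96.3 to 122 and 81.9 to 126 CPM, the 5 stellate cell markers to 136 to 186 and 144 to 176 CPM, and the 5 cholangiocyte markers to 23.7 to 31.6 and 29.7 to 40.6 CPM. The leukocyte markers summed to 3.76 to 8.09 and 5.08 to 8.57 CPM, with *Cd3e* not listed and *Ms4a1* and *Nkg7* at 0 counts in at least 1 library each. The 5 erythroid markers summed to 114 to 431 and 208 to 346 CPM, with 3 fitted above 0 and 2 below. *Hba-a2*, a small part of these sums at means of 3.15 and 0.414 CPM, was called lower (log2 fold change -2.92, edgeR adjusted p = 0.0570). None of the 5 adipocyte or 4 pancreatic acinar markers was listed. The summed ranges of all these lists overlapped between the groups, unlike the shares of mitochondrial counts given above, and the part of any of them in the members' changes was not tested.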

How the data were processed

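Gene expression was measured by RNA sequencing in the livers of 4 HFD WT mice and of 4 HFD *Inpp4b*-/- mice. For the deposited table, the authors mapped paired-end reads with HISAT2 (GRCm38) and counted by gene in HTSeq (versions and strand setting not given in the sources used here); a STAR alignment was not analysed here. The labels add removal of ribosomal RNA, which the methods do not mention. The deposited counts are raw. A deposited table of the same counts scaled per library was not used. Each of the 18095 listed genes had a read in every library of at least 1 of the groups, and all matched GENCODE M21. Nothing says that libraries share a mouse, and replicate numbers are those of the labels.

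Counts were normalised by TMM, filtered with filterByExpr and tested with edgeR 4.0.16 (R 4.3.3; estimateDisp, glmQLFit, glmQLFTest) with Benjamini-Hochberg adjustment over 14866 genes and the study's limits (adjusted p under 0.10, fold over 1.3). RPKM used the summed exon length. Alternatives were DESeq2 1.42.0, other scalings and filters, a stricter threshold, a block for the replicate number, and the omission of each library in turn. Depth was 25893430 to 36662531 counts per library, and tested members had 54 to 182777 counts. The biological coefficient of variation was 0.251. The procedure was tested on simulated data, where a larger share of the DESeq2 calls than of the edgeR calls fell on unchanged genes. Of the members, 17 share exon sequence with another annotated gene.

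The members and lists were chosen with earlier results of these data known. All 40 members are named by role. Values by library are given for members that were called, fell below the filter or had one of the 5 lowest p of their class, and for 4 others by choice. Protein sequence features were not analysed here. Of the other lists, the rule named *Ppara*, *Pparg*, 1 further gene and each called gene; some of these are not reported here. Any other gene was chosen after its values were seen.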

Additional observations from a re-analysis of the deposited data

Results flagged for a closer look

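In 82 groups of 4 libraries (members and groups), a library stood apart from the other 3 by Dixon's criterion in 3, where chance alone gives about 1 in 20, or 4.1. *Pex19* was at 78.1 CPM in HFD WT replicate 4, and the nearest WT library was at 99.4 CPM. *Ech1* was at 220.1 CPM in HFD WT replicate 2, and the nearest was at 265 CPM. *Far1* was at 5.53 CPM in HFD WT replicate 4, and the nearest was at 2.32 CPM. For *Far1* this library set the sign of the fitted change, whereas *Pex19* and *Ech1* had a fitted change above 0 whichever library was left out.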

How the results depend on the processing

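The median log2 fold change stayed above 0 under every alternative for peroxins (0.126 to 0.220 with a library left out) and for enzymes and transporters (0.147 to 0.218). Calls were less stable. Genes called numbered 174, against 688 with DESeq2 and 71 at an adjusted p under 0.05, and 53 to 345 with a library left out, the most without HFD WT replicate 2. Members called numbered 5 with DESeq2, 3 with upper quartile scaling (*Pex16*, *Acaa1b*, *Ech1*), and 1 to 3 with a library left out: *Pex16* in each case, with *Abcd2* and *Acot4* without HFD WT replicate 2 and *Hao2* without HFD *Inpp4b*-/- replicate 4. The *Hao2* calls are not free of its selection through the knockout libraries, described above. Same-numbered libraries did not deviate together (correlations -0.17 to -0.01), which cannot by itself show whether the numbers pair mice. With the replicate block, 26 genes and 0 members were called (*Pex16* adjusted p = 0.129).

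Of 546 alternative values of single members, 521 kept sign and side of the threshold and 17 changed sign, all in 8 members with changes near 0. With upper quartile scaling *Pex6* was at 0.013 and *Amacr* at 0.0057. With a library left out, *Pex6* ran from -0.069 to 0.032, *Pex26* from -0.062 to 0.27, *Scp2* from -0.079 to 0.093, *Acox2* from -0.067 to 0.11, *Acox3* from -0.023 to 0.14, *Amacr* from -0.080 to 0.021, *Hao1* from -0.081 to 0.068 and *Far1* from -0.27 to 0.33. Members with all knockout libraries above all WT libraries numbered 10 to 13 with a library left out, where 6.03 to 8.09% of all genes did so, and those below 1 to 3, where 5.24 to 7.38% of all genes did so (3 members and 7.38% without HFD WT replicate 2). *Hao2* ran from a log2 ratio of 2.43 to 3.09, with p = 0.0571 without any 1 WT library and 0.0286 without any 1 knockout library (exact permutation test). With 1 CPM added in place of 0.1 CPM it was 0.77. *Inpp4b* ran from -0.056, without HFD *Inpp4b*-/- replicate 1, to 0.77. The median of the other peroxisomal genes ran from 0.078, without HFD WT replicate 4, to 0.150, and that of the female-predominant genes from -0.42 to 1.77, the latter without HFD WT replicate 2. The causes were not tested.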
